A study of Mus musculus with 8 samples.

Results

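Transcripts of 10 mouse genes of the folding machinery of the endoplasmic reticulum (ER) were followed in the dorsomedial hypothalamus (DMH) under a hairpin RNA against Ppp1r17. The genes were taken by name: Hspa5, Hsp90b1, Pdia3, Pdia4, Pdia6, Calr, Canx, Xbp1, Dnajb9 and Sdf2l1. All 10 were found by symbol among 55487 gene identifiers, and all 10 passed the filter on low counts that left 17339 genes to be tested. The study compared 4 libraries named shPpp1r17, whose genotype is given as a Ppp1r17 knockdown, with 4 named shfLuc, a knockdown of firefly luciferase, a gene that mice lack. Ppp1r17 encodes an inhibitor of protein phosphatases. Each library came from a DMH sample, and the sample names carry LMD, the usual abbreviation of laser microdissection. The labels do not say whether the 4 libraries of a hairpin come from separate animals, so p-values reflect only how much these libraries differ, part of which may be technical. Strain, sex, age and the way the hairpins were delivered are likewise not given.

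The ER is where secreted and membrane proteins fold. Hspa5 (BiP) and Hsp90b1 (Grp94) are its Hsp70 and Hsp90 chaperones, Calr and Canx bind sugar chains of folding glycoproteins, and the Pdia enzymes form and exchange disulfide bonds. Dnajb9 and Sdf2l1 assist BiP. When unfolded proteins build up, the sensors Ern1 (IRE1), Atf6 and Eif2ak3 (PERK) start the unfolded protein response: IRE1 removes a short intron from the Xbp1 mRNA so that the factor XBP1s is made, and XBP1s and the cleaved ATF6 raise chaperone transcription through ER stress elements in the promoters. Neurons that secrete peptides, as many in the hypothalamus do, carry a large load of such proteins.

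The ER stress element is the sequence CCAAT, 9 bases of any kind, then CCACG, and it is shown here because it links several of the genes by their promoters. In RefSeq promoter windows of GRCm38.p6, which run from 250 bases before to 50 bases after the annotated start, an exact match on either strand was found in 5 of the 10 genes, Hspa5, Calr, Hsp90b1, Canx and Pdia6. Among all 32851 windows 39 held one (0.119%). The matches are written 5′ to 3′ in the direction of the element, with its fixed bases in capitals.
Hspa5, chr2:34772025-34772043: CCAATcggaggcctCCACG
Calr, chr8:84847075-84847093: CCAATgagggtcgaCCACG
Hsp90b1, chr10:86705638-86705656: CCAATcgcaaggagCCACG
Hsp90b1, chr10:86705533-86705551: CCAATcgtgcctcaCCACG
Canx, chr11:50325800-50325818: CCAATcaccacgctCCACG
Pdia6, chr12:17266491-17266509: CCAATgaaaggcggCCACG
In Hsp90b1 the first match listed lies on the strand of the gene and the other on the opposite strand, and in Calr the match lies on the opposite strand. The element nearest a start was that of Hspa5, whose first base lay 65 bases before it. No exact match to this element was found in the windows of Pdia3, Pdia4, Xbp1, Dnajb9 or Sdf2l1. The second form of the element (ATTGG, 1 base, CCACG) was in no member's window and in 0.0365% of all windows. TGACGTG, the core of the unfolded protein response element, was in the Hspa5 window alone among the 10, against 2.01% of all windows. The 2 windows below show how these letters lie in the genes of the ER's Hsp70 and Hsp90 chaperones, with the fixed bases of each match in capitals and the gene's own strand written 5′ to 3′.
Hspa5, chr2:34771840-34772139, plus strand: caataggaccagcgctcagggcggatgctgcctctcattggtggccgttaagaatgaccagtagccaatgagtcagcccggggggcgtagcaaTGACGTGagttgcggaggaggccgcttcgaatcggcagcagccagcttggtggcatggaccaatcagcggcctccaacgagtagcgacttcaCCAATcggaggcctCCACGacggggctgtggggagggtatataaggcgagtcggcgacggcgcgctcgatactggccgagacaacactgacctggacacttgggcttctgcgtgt
Hsp90b1, chr10:86705395-86705694, minus strand: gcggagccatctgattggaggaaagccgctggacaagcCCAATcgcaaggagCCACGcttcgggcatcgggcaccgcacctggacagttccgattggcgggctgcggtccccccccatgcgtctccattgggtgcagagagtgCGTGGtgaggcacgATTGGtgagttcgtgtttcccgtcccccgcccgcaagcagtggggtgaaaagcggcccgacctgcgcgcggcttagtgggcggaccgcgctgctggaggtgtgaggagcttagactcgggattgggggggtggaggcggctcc
A match describes the letters only.

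**Figure D1:**
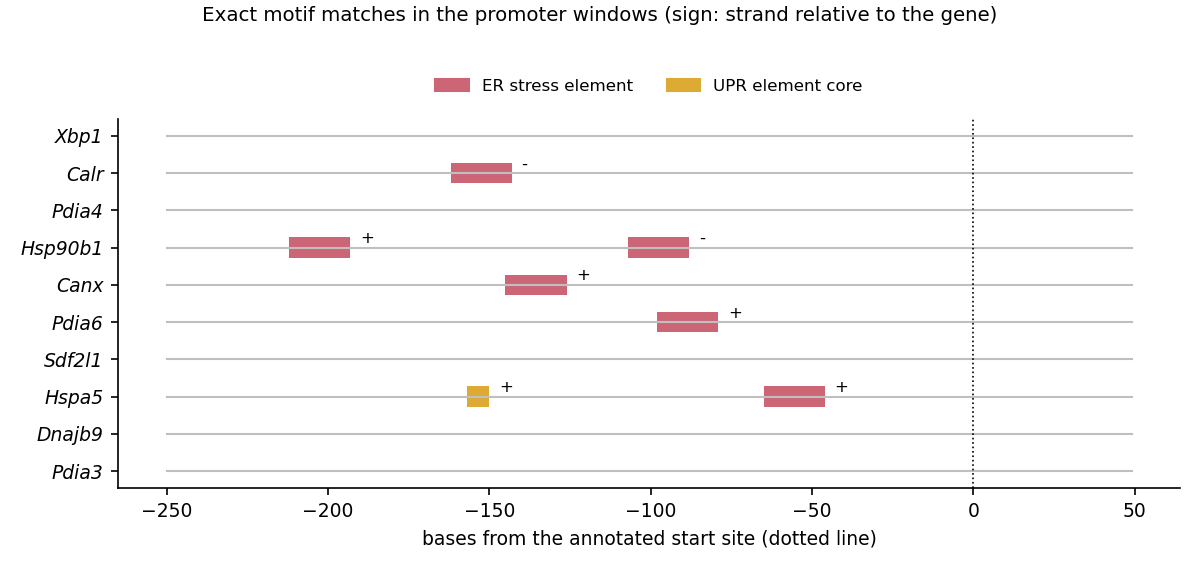
Positions of exact motif matches in the promoter windows of the 10 genes, in bases from the annotated start site (dotted line), with the strand of each match relative to the gene as a sign. Red boxes are ER stress elements, in 5 genes, and the yellow box is the TGACGTG core in Hspa5.

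The libraries held 23070147 to 33907984 estimated reads, and the 10 genes had 2385 (Sdf2l1) to 467246 reads (Canx) over the 8 libraries. Ppp1r17 itself stood at 54.8%, 1.29%, 1.94% and 54.5% of the shfLuc mean in shPpp1r17 1 to 4, with no overlap between the groups (log2 fold change -1.83, SE 0.80, adjusted p = 0.197 in edgeR). The shPpp1r17 libraries 2 and 3 thus stand apart from 1 and 4 in the target gene, and values without these 2 libraries are given beside the members and beside the calls in each list. Neuronal markers were called in both directions: 1 of 10 rose (Tubb3) and 3 fell (Syt1, Nefl and Eno2) in edgeR, with summed levels of 4738 to 4822 CPM (estimated reads scaled to a common library total) in shfLuc and 4716 to 5167 in shPpp1r17. Among genes known from the DMH, Npvf was present in every library (43.8 to 98.8 CPM), as was Gpr50 (42.1 to 63.6 CPM). Brs3 stood at 39.3, 43.2, 51.1 and 46.1 CPM in shfLuc and at 34.1, 7.26, 8.47 and 29.4 CPM in shPpp1r17, so it was lowest in the libraries with the least Ppp1r17. Markers of other cells moved with the hairpin: 5 of 11 microglial and macrophage genes, 3 of 9 oligodendrocyte genes and 2 of 8 B and plasma cell genes rose in edgeR and none of these fell, against 3.39% of all genes tested called higher. Without the shPpp1r17 libraries 2 and 3 these counts were 0, 0 and 1, with 6, 2 and 3 higher at an unadjusted p under 0.05, and the median oligodendrocyte log2 fold change went from 0.61 to 0.20. The summed level of the microglial and macrophage genes was 294 to 395 CPM in shfLuc and 412 to 620 in shPpp1r17, that of the oligodendrocyte genes 1273 to 1321 and 1314 to 2319, and that of the B and plasma cell genes, cells rich in ER chaperones, 35.3 to 446 and 409 to 2626. No marker reported here was at 0 in all libraries. Summed endothelial markers (8 genes) were at 91.4 to 112 CPM in shfLuc and 104 to 172 in shPpp1r17, astrocyte markers (9 genes) at 3535 to 3932 and 3424 to 3773, and ependymal, tanycyte and choroid plexus markers (8 tested) at 69.8 to 94.5 and 86.2 to 139. In edgeR, calls within the astrocyte and the ependymal sums went in both directions. Of the astrocyte markers Gfap (log2 fold change 1.82) and S100b (0.29) rose and Agt (-0.61) and Slc1a3 (-0.46) fell. Of the ependymal and related markers Rarres2 (0.64) and Crym (2.11) rose and Clic6 (-0.80) fell. Of the endothelial markers Ly6c1 (0.84) alone was called, as higher. None of these, nor the neuronal calls, passed without the shPpp1r17 libraries 2 and 3. Marker genes were named here after their values were seen. The part of these cells in the results on the chaperone genes and on the gene lists was not tested. In tissue RNA, fewer cells of a type and less RNA per cell cannot be told apart.

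Per transcript length, the 10 genes spanned a wide range of levels in the control libraries. In TPM, the deposited unit that divides by transcript length, Canx was highest in shfLuc (783 ± 170, SD, n = 4), followed by Hspa5 (499 ± 20.1), Hsp90b1 (301 ± 12.2) and Pdia6 (265 ± 6.97). Pdia3 (159 ± 23.3) and Calr (137 ± 10.7) came next and overlapped. The lower end held Pdia4 (50.3 ± 7.08), Xbp1 (42.3 ± 2.80), Dnajb9 (33.7 ± 2.62) and Sdf2l1 (18.5 ± 0.96). The shfLuc levels of Pdia4 and Xbp1 also overlapped, although Pdia4 was the higher in each of the 8 libraries. All other neighbours in this order were in that order in all 8 libraries, with no overlap within shfLuc. Under shPpp1r17 the order was kept except that Calr (152 ± 9.87 TPM) stood above Pdia3 (102 ± 18.2 TPM), in all 4 of those libraries.

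**Figure D2:**
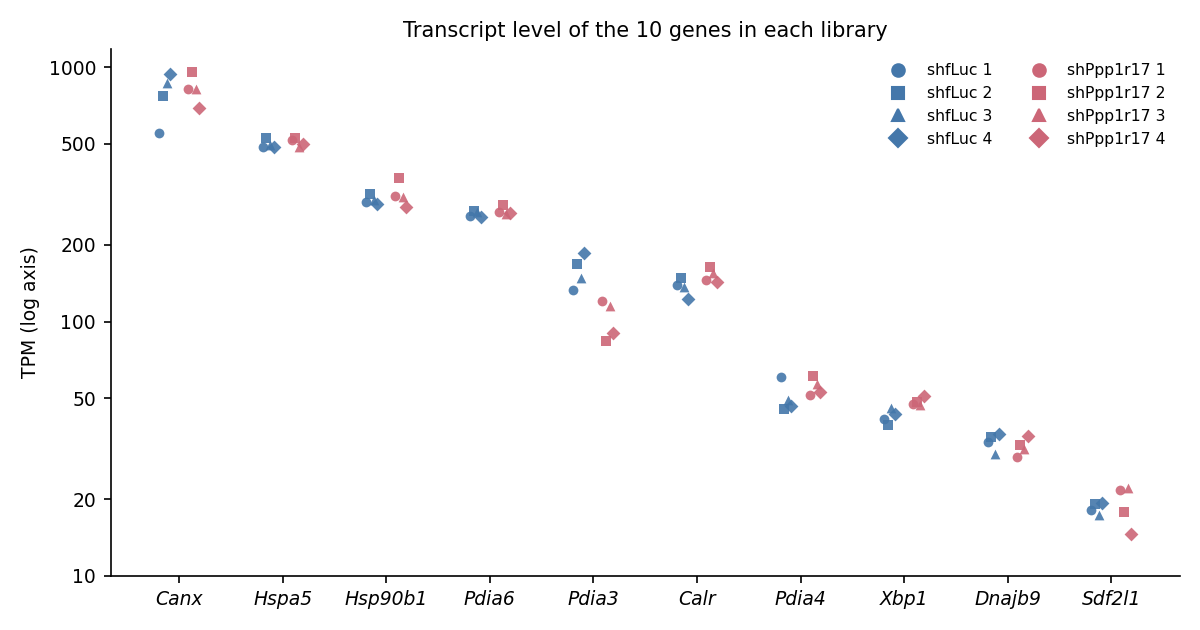
TPM of each of the 10 genes in each library on a log axis, with genes ordered by the shfLuc mean. Blue symbols are the 4 shfLuc and red symbols the 4 shPpp1r17 libraries. Canx is highest and Sdf2l1 lowest, and for Pdia3 the red symbols lie below the blue ones.

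Between the hairpins, 1 of the 10 genes rose and 1 fell at an adjusted p of 0.05, and both shifts were below 1.5-fold. Xbp1, the transcription factor of the response, rose 1.2-fold, and Pdia3, the disulfide isomerase (ERp57) that works with calnexin and calreticulin, fell to 0.693 of its control level. In edgeR's quasi-likelihood test 6.06% of all genes tested passed, 3.39% as higher and 2.66% as lower in shPpp1r17. The calls among the 10 genes were 1 in each direction, a count too small to be set apart from these shares. The fitted log2 fold change was above 0 for 9 of the 10 genes, and for 8770 of all 17339 tested. It was also above 0 for 9 of 10 mitochondrial and 21 of 29 cytosolic chaperone genes, so this was not particular to the ER genes. Its median was 0.15 over the 10 ER genes, against 0.0042 over all genes tested, which the scaling of the libraries holds near 0. On log2(TPM + 1), with limma, the differences of all 10 genes were lower than in edgeR. They were 0.02 (Hspa5), 0.07 (Hsp90b1), 0.15 (Pdia4), 0.04 (Pdia6), 0.15 (Calr), 0.09 (Canx), 0.19 (Xbp1), -0.06 (Dnajb9) and 0.02 (Sdf2l1). Pdia3 was at -0.63 there. The genes tested as a whole also leaned lower in that unit. At an unadjusted p under 0.05, 1269 were higher and 2779 lower with limma, against 2002 and 1909 in edgeR. With the shPpp1r17 libraries 2 and 3 left out, the median over the 10 was 0.09 and none passed in edgeR (1 higher and 1 lower at an unadjusted p under 0.05). EdgeR called no gene at all without shfLuc 2 (1762 higher and 1547 lower at an unadjusted p under 0.05; DESeq2 685 and 518; limma voom 0) or without shfLuc 3 (1627 and 1518; DESeq2 657 and 500; limma voom 0). The CPM ranges of the hairpins were apart for 5 of the 10 genes (Hspa5, Pdia6, Calr and Xbp1 higher, Pdia3 lower), as for 13.9% of all genes tested. DESeq2 called 2 higher and 1 lower, and limma voom 1 and 1.

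The chaperone of the Hsp70 class, Hspa5, differed little. It stood at 897, 947, 873 and 900 CPM in shfLuc 1 to 4 and at 992.5, 1006, 949 and 951 CPM in shPpp1r17 1 to 4. The highest shfLuc library lay just under the lowest shPpp1r17 library, so the groups did not overlap, but the log2 fold change of 0.11 (SE 0.06) did not pass the threshold (adjusted p = 0.277 in edgeR). Hsp90b1 stood at 597, 626, 581 and 591 CPM in shfLuc and at 656.5, 770, 678 and 604.5 CPM in shPpp1r17. Here library 2 was highest and library 4 lay within the control range, and the log2 fold change of 0.18 (SE 0.07) did not pass (adjusted p = 0.177 in edgeR). When shPpp1r17 2 and 3 were left out, it was 0.07 (adjusted p = 0.721 in edgeR), and that of Hspa5 was 0.10.

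Of the helpers of BiP, neither passed. Dnajb9, a J-domain protein that also restrains IRE1, stood at 56.4, 56.0, 48.2 and 61.4 CPM in shfLuc and 50.9, 55.7, 55.8 and 63.2 CPM in shPpp1r17 (log2 fold change 0.02, SE 0.09). Its direction turned with the unit: on deposited TPM the difference was -0.06. Sdf2l1, the least abundant of the 10, stood at 11.2, 11.5, 9.96 and 11.5 CPM in shfLuc and 13.8, 11.1, 14.3 and 8.85 CPM in shPpp1r17 (0.12, SE 0.16, and 0.02 without the shPpp1r17 libraries 2 and 3). In shPpp1r17 it therefore lay both above and below the whole control range.

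The lectin chaperones differed in how far their libraries spread. Calr stood at 195, 199, 185 and 176 CPM in shfLuc and 211, 239, 233 and 210 CPM in shPpp1r17. All shPpp1r17 libraries were above all shfLuc libraries, and the log2 fold change of 0.24 (SE 0.07) came close to the threshold without passing it in edgeR (adjusted p = 0.0654). Over 22 alternatives its adjusted p ran from 0.0203 to 0.434, and 4 of them called it higher, among them DESeq2. Without the shPpp1r17 libraries 2 and 3 the difference was 0.15 (adjusted p = 0.434 in edgeR). Canx, the membrane-bound relative of calreticulin, stood at 1527, 2044, 2293 and 2618 CPM in shfLuc and 2335, 2707, 2403 and 2023 CPM in shPpp1r17. The controls alone spanned most of that range, with shfLuc 1 lowest, and the log2 fold change of 0.16 (SE 0.13) did not pass (adjusted p = 0.530 in edgeR). It was 0.03 without shfLuc 1 (adjusted p = 0.898 in edgeR) and 0.04 without the shPpp1r17 libraries 2 and 3. Canx supplied much of the reads of the group: the share of reads falling on all 10 was 0.469% ± 0.0438 (SD, n = 4) under shfLuc and 0.509% ± 0.0383 (SD, n = 4) under shPpp1r17, ranges that overlap. For the 9 without Canx it was 0.257% ± 0.00695 and 0.273% ± 0.0106, which also overlap.

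The disulfide isomerases did not move together. Pdia3 stood at 249, 301, 261 and 344 CPM in shfLuc and 232, 164, 229 and 177 CPM in shPpp1r17. The lowest control library was above all 4 shPpp1r17 libraries, with 2 and 4 the lowest of these, and the log2 fold change was -0.53 (SE 0.13, adjusted p = 0.0306 in edgeR). Of the Ppp1r17 transcript, library 2 kept 1.29% and library 4 54.5% of the shfLuc mean, while library 3, higher in Pdia3, kept 1.94%. Whether Pdia3 followed the remaining Ppp1r17 was not tested. The fold change ran from -0.64 to -0.43 over 22 alternatives, 15 of which called it, and the call was lost with the replicate block (adjusted p = 0.0656), without shfLuc 2, 3 or 4 (0.0953, 0.0707 and 0.0935) and without shPpp1r17 2 or 3 (0.0890 and 0.0534) or both (-0.51, adjusted p = 0.165). Pdia6 stood at 391, 397, 382 and 376 CPM in shfLuc and 420, 443, 422 and 417 CPM in shPpp1r17. The groups were separate and tight, and the log2 fold change of 0.14 (SE 0.06) did not pass (adjusted p = 0.176 in edgeR). Pdia4 stood at 104, 75.3, 79.3 and 77.7 CPM in shfLuc and 90.7, 107, 103 and 93.9 CPM in shPpp1r17. Only shfLuc 1 among the controls reached into the shPpp1r17 range, and the log2 fold change of 0.23 (SE 0.11, adjusted p = 0.22 in edgeR) became 0.35 without that library (adjusted p = 0.0324 in edgeR). With the shPpp1r17 libraries 2 and 3 left out, the log2 fold change was 0.13 for Pdia4 and 0.11 for Pdia6.

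Xbp1 showed the narrowest shPpp1r17 group of the 10 relative to its mean. Its level was 53.7, 49.98, 56.5 and 55.3 CPM in shfLuc and 63.8, 64.5, 64.4 and 66.1 CPM in shPpp1r17. The 4 shPpp1r17 libraries were nearly level, whether or not much Ppp1r17 was left, and all lay above the controls, with a log2 fold change of 0.26 (SE 0.07, adjusted p = 0.0447 in edgeR). The value stayed between 0.19 and 0.29 over the 22 alternatives, but only 7 of these called it. The call was lost when any of the 8 libraries was left out (shfLuc 1 to 4, adjusted p = 0.0745, 0.145, 0.0935 and 0.0919; shPpp1r17 1 to 4, 0.0570, 0.102, 0.124 and 0.0637), with the replicate block (0.0907) and on log2(TPM + 1) (0.19, adjusted p = 0.14 with limma). When shPpp1r17 2 and 3 were left out, the difference was 0.27 (adjusted p = 0.229 in edgeR). These are totals per gene, so the spliced and unspliced forms of Xbp1 mRNA were not told apart.

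**Figure D3:**
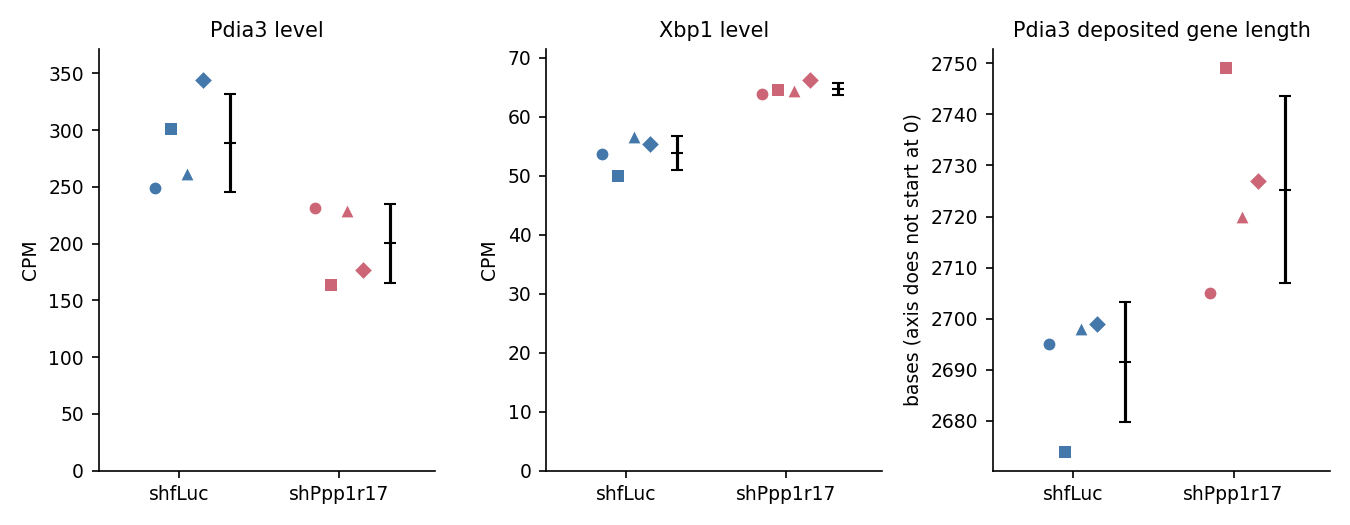
CPM of Pdia3 and of Xbp1 and the deposited gene length of Pdia3 in bases, by hairpin, with 1 symbol per library and the mean ± SD (n = 4) as a bar. Pdia3 is lower and Xbp1 higher in all shPpp1r17 libraries than in all shfLuc libraries, and the Pdia3 length rises from 2692 to 2725 bases on average.

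Set side by side by library, 8, 9, 9 and 7 of the 10 genes lay above the control mean in shPpp1r17 1 to 4. In shfLuc 1 to 4 the counts were 5, 7, 2 and 5, so shfLuc 2 and shPpp1r17 4 had the same count. Relative to the shfLuc mean, the median of the 10 genes on the log2 scale was 0.13, 0.23, 0.19 and 0.09 in shPpp1r17 1 to 4 and between -0.05 and 0.05 in the shfLuc libraries. Medians of all genes tested stayed within 0.0166 of 0 in every library. The scaling of the libraries largely fixes this, and the shfLuc values are relative to their own mean. These medians therefore cannot tell how unusual those of the 10 genes are. In shPpp1r17 2, 9 of the 10 genes lay above the shfLuc mean and 6 had their highest value of all libraries (Hspa5, Hsp90b1, Pdia4, Pdia6, Calr and Canx), while Pdia3 had its lowest value there. In that library the B and plasma cell markers were also highest, with a median 3.8 above the shfLuc mean on the log2 scale. Their median was 2.87, 2.69 and 0.86 in shPpp1r17 1, 3 and 4, and 1.57, -0.37, 0.21 and -0.785 in shfLuc 1 to 4. It was thus higher in shPpp1r17 1 than in 3, and in shfLuc 1 than in shPpp1r17 4. The median of the 10 genes was lower in shPpp1r17 1 than in 3, and in shfLuc 1 (0.0066) than in shPpp1r17 4. Whether the 10 genes followed these markers was not tested. In shPpp1r17 4, Pdia3 lay 0.70 and Sdf2l1 0.31 below the shfLuc mean while Xbp1 and Dnajb9 had their highest values.

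**Figure D4:**
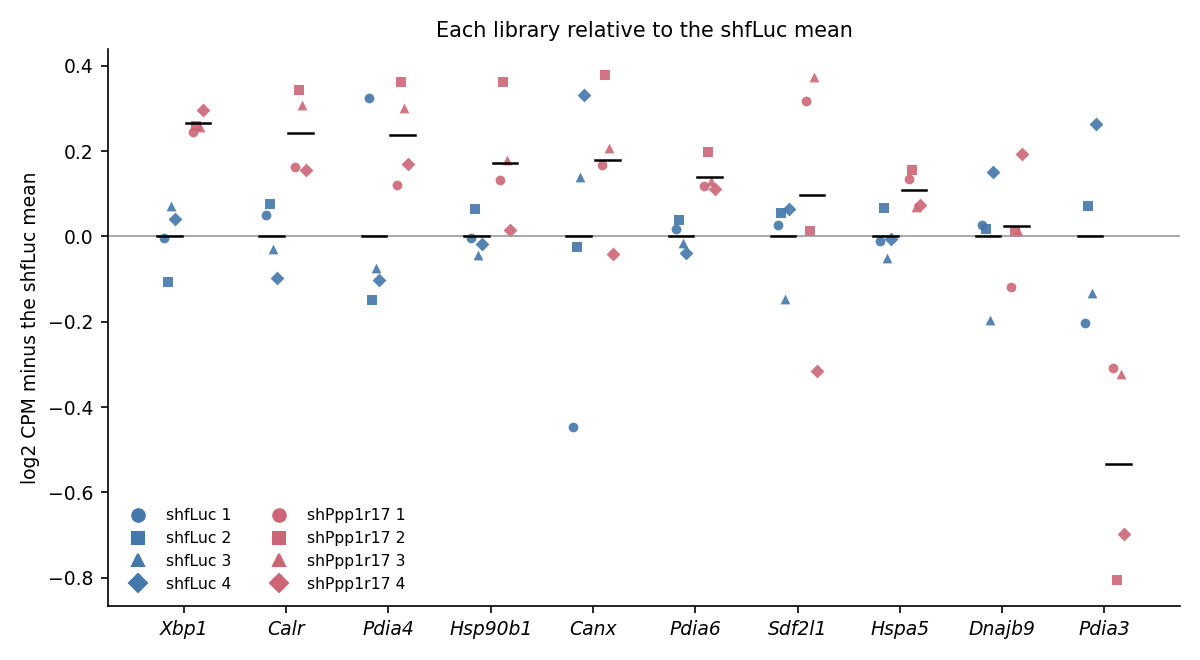
Log2 CPM of each gene in each library minus the shfLuc mean of that gene, with black bars at the group means. Genes are ordered by fitted fold change, from Xbp1 (0.26) to Pdia3 (-0.53). Red symbols (shPpp1r17) sit above 0 for most genes and below -0.30 for Pdia3.

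The deposited gene length offered a second readout that the choice of genes did not use. It is given per library and, for genes with several transcripts, changes between libraries, as a mean over transcripts would. It varied for 7 of the 10 genes, and for 2 of these, Pdia3 and Canx, the groups were apart, against 3.87% of 13078 tested genes of varying length. The Pdia3 length was 2695, 2674, 2698 and 2699 bases in shfLuc 1 to 4 and 2705, 2749, 2720 and 2727 bases in shPpp1r17 1 to 4. It moved toward the 2770 bases of the protein-coding transcript in the GENCODE M21 annotation, whose other Pdia3 transcripts have 736, 722 and 400 bases. For Canx the mean length was 3798 ± 2.38 bases in shfLuc and 3789 ± 6.16 bases in shPpp1r17 (SD, n = 4). The Xbp1 length overlapped between the groups (2048 to 2091 and 2042 to 2080 bases). No test was made on lengths.

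Positions in GRCm38 place Pdia3 on chromosome 2 (121413775 to 121438687, plus strand, ENSMUSG00000027248) and Xbp1 on chromosome 11 (5520659 to 5525893, plus strand, ENSMUSG00000020484). Neither lies beside the other genes of the group, although Canx is also on chromosome 11 (50293961 to 50325673, minus strand) and Hspa5 also on chromosome 2 (34771970 to 34777547, plus strand). The 3′ UTRs of the 10 genes were searched for CTCTGATA or either 7-mer in it, a sequence known from earlier results of these data to be frequent in the genes called lower. It was in 55.0% of 436 genes called lower and in 17.0% of all 20674 UTRs searched. Since the sequence was known from these same data, the share in the genes called lower is no independent result. These shares are of unlike sets, since the UTRs searched include genes that were not tested. The length of the UTRs was not allowed for. None of the 10 genes held a match, Pdia3 and its 988 bases of 3′ UTR included.

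Genes whose course over the libraries was most like that of a member were looked up among 5202 genes of high level. For Hspa5 the closest were Cct5, a subunit of the cytosolic chaperonin, and the RNA helicase genes Ddx1 and Ddx52, with a root mean square difference of 0.030, 0.033 and 0.034 on the log2 scale over the 8 libraries, against a median of 0.169 for all genes compared. For Xbp1 they were Eef1e1, Pqlc1 and Rsl24d1 (0.031, 0.048 and 0.048, median 0.239). Pdia3 had no gene as close: the nearest were Rheb, Zcrb1 and Cadm1 (0.150, 0.153 and 0.154, median 0.430).

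Among the other ER chaperones and folding enzymes 3 of 45 rose and 3 fell in edgeR. Of all genes tested 3.39% were called higher and 2.66% lower. Those that rose were Manf, a secreted ER stress protein (log2 fold change 0.32, SE 0.08), Mcfd2, a cargo receptor partner in ER export (0.27, SE 0.07), and P4hb, the archetypal protein disulfide isomerase (0.39, SE 0.09). Those that fell were Uggt1, which re-tags misfolded glycoproteins for calnexin and calreticulin (-0.52, SE 0.12), Dnajc10, a J-domain disulfide reductase (-0.42, SE 0.10), and Tmx4, a membrane thioredoxin (-0.51, SE 0.14). P4hb and Tmx4 are named after their values were seen. Their adjusted p-values ran from 0.0234 (Uggt1) to 0.0454 (Tmx4) in edgeR, and the median over the 45 was 0.06. Uggt1 stood at 39.7, 38.2, 37.8 and 34.6 CPM in shfLuc and 29.7, 22.96, 21.8 and 30.6 CPM in shPpp1r17, so it was lowest in libraries 2 and 3, as were Dnajc10 (86.8, 68.1, 61.8 and 81.5 CPM) and Tmx4 (404, 287, 277 and 460 CPM). The log2 fold changes without those libraries were -0.32 for Uggt1, -0.25 for Dnajc10, -0.24 for Tmx4, 0.22 for P4hb, 0.20 for Mcfd2 and 0.33 for Manf, and none of the 45 passed there in edgeR (5 higher and 4 lower at an unadjusted p under 0.05). With trends on length and GC content taken out of each library, Manf was at 0.18 (adjusted p = 0.172 in edgeR). Mcfd2, Uggt1 and Tmx4 also no longer passed (0.0551, 0.0567 and 0.0784). There 3 of the 45 rose (P4hb, Tmx1 and Hspa13) and 1 fell (Dnajc10). Tmx1 and Hspa13 had not passed in the main test (adjusted p = 0.071 and 0.124 in edgeR) and are named after their values were seen. Uggt1 held 1 match to the 3′ UTR sequence above, Tmx4 held 2 and Dnajc10 none. Manf, which rose, also held 1.

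Of 19 sensors and transducers of the unfolded protein response tested, 2 rose and none fell in edgeR (5 and 0 at an unadjusted p under 0.05; 4 and 0 in DESeq2; 2 and 0 in limma voom). Over all genes tested the edgeR shares were 3.39% higher and 2.66% lower. Ddit3 (CHOP), a factor of prolonged ER stress, stood at 40.6, 36.6, 31.2 and 39.4 CPM in shfLuc and 51.7, 69.9, 62.2 and 48.0 CPM in shPpp1r17 (log2 fold change 0.65, SE 0.12, adjusted p = 0.0133 in edgeR). Atf4, which acts before it in the PERK branch and is shared with other stresses, rose by 0.41 (SE 0.10). Chac1, a target of these factors, was at 0.50 (SE 0.15, adjusted p = 0.0686 in edgeR), and Atf3 at 1.23 (SE 0.45, adjusted p = 0.126 in edgeR), with 1.19 to 2.44 CPM in shfLuc and 1.09 to 7.15 CPM in shPpp1r17. The sensors themselves did not pass: Eif2ak3 was at 0.28 (SE 0.13), Atf6 at -0.02 (SE 0.11) and Ern1 at -0.34 (SE 0.20). These sensors are named after their values were seen. Ddit3 was highest in shPpp1r17 2 and 3, where the median markers of microglia and macrophages (0.82 and 0.71 above the shfLuc mean on the log2 scale) and of oligodendrocytes (0.99 and 1.04) were also highest, and the part of these cells was not tested. Without the shPpp1r17 libraries 2 and 3, Ddit3 was at 0.43 (adjusted p = 0.149 in edgeR) and Atf4 at 0.29 (adjusted p = 0.283 in edgeR).

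In ER-associated degradation 2 of 26 rose and none fell in edgeR (4 and 2 at an unadjusted p under 0.05; 2 and 1 in DESeq2; 2 and 0 in limma voom). These were Derl2, a channel component (0.35, SE 0.08), and Selenok, a selenoprotein that binds derlins (0.30, SE 0.07). Herpud1, a target of both ATF6 and ATF4, was at 0.21 (SE 0.08, adjusted p = 0.145 in edgeR), and Tmub1 at -0.46 (SE 0.16, adjusted p = 0.0972 in edgeR). With the shPpp1r17 libraries 2 and 3 left out, Derl2 was at 0.23 (adjusted p = 0.288 in edgeR) and Selenok at 0.20 (0.306), and with the trends on length and GC content removed Selenok was at 0.17 (0.203). The median over the 26 was 0.04. Among all genes tested 3.39% were called higher and 2.66% lower in edgeR.

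The list with the most calls was that of proteins that bring chains into the ER and process them. Of 30 genes of the translocon, signal peptidase and N-glycosylation 8 rose and none fell in edgeR (16 and 2 at an unadjusted p under 0.05; 11 and 0 in DESeq2; 9 and 0 in limma voom), with a median of 0.16 and groups that did not overlap for 13. For all genes tested the shares were 3.39% called higher in edgeR and 13.9% with groups that did not overlap. Ssr2, of the translocon-associated complex, stood at 123, 125, 122 and 121 CPM in shfLuc and 153, 173, 180 and 171 CPM in shPpp1r17 (log2 fold change 0.46, SE 0.07, adjusted p = 0.00997 in edgeR). The controls lay within a few CPM of each other and the groups were far apart. Sec61b, of the channel itself, rose by 0.45 (SE 0.07), Sec11a, a signal peptidase subunit, by 0.50 (SE 0.08), and Ostc, of the oligosaccharyltransferase, by 0.43 (SE 0.08). With trends on length and GC content taken out of each library, 5 of the 30 rose and Sec61b no longer passed (adjusted p = 0.0652 in edgeR). When shPpp1r17 2 and 3 were left out, none passed (11 higher at an unadjusted p under 0.05), with Ssr2 at 0.40 and Sec61b at 0.43. The median of the list relative to the shfLuc mean was 0.11, 0.20, 0.27 and 0.12 in shPpp1r17 1 to 4, so it was highest in libraries 2 and 3, as were the medians of the microglial, oligodendrocyte and endothelial markers (0.57 and 0.68 for the last).

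Chaperones outside the ER were measured alongside. In the cytosolic list 1 of 29 rose, the chaperonin subunit Cct4 (0.32, SE 0.08), and none fell in edgeR (6 and 3 at an unadjusted p under 0.05; 3 and 2 in DESeq2; 1 and 0 in limma voom). Cryab, a small heat shock protein abundant in oligodendrocytes, was at 0.43 (SE 0.12, adjusted p = 0.0559 in edgeR), Hsp90aa1 at -0.25 (SE 0.08) and Hspa4l at -0.19 (SE 0.06). In the mitochondrial list 1 of 10 rose, Hscb (0.56, SE 0.14), a co-chaperone of iron-sulfur cluster assembly, and none fell in edgeR (3 and 0 at an unadjusted p under 0.05; 1 and 0 in DESeq2 and in limma voom). Hspe1, Clpp and Grpel1 were at 0.16, 0.13 and 0.13. The medians were 0.07 for the cytosolic and 0.11 for the mitochondrial list. Fold changes were above 0 for 21 of the 29 cytosolic and 9 of the 10 mitochondrial genes. The groups did not overlap for 3 and 4 of them, against 13.9% of all genes tested. With 1 call each, these lists cannot be set apart from the 3.39% of all genes tested called higher. Without the shPpp1r17 libraries 2 and 3 Cct4 was at 0.25 (adjusted p = 0.253 in edgeR), Cryab at 0.16 and Hscb at 0.45 (adjusted p = 0.26 in edgeR), and Hscb also did not pass with the trends on length and GC content removed (0.39, adjusted p = 0.093 in edgeR).

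**Figure D5:**
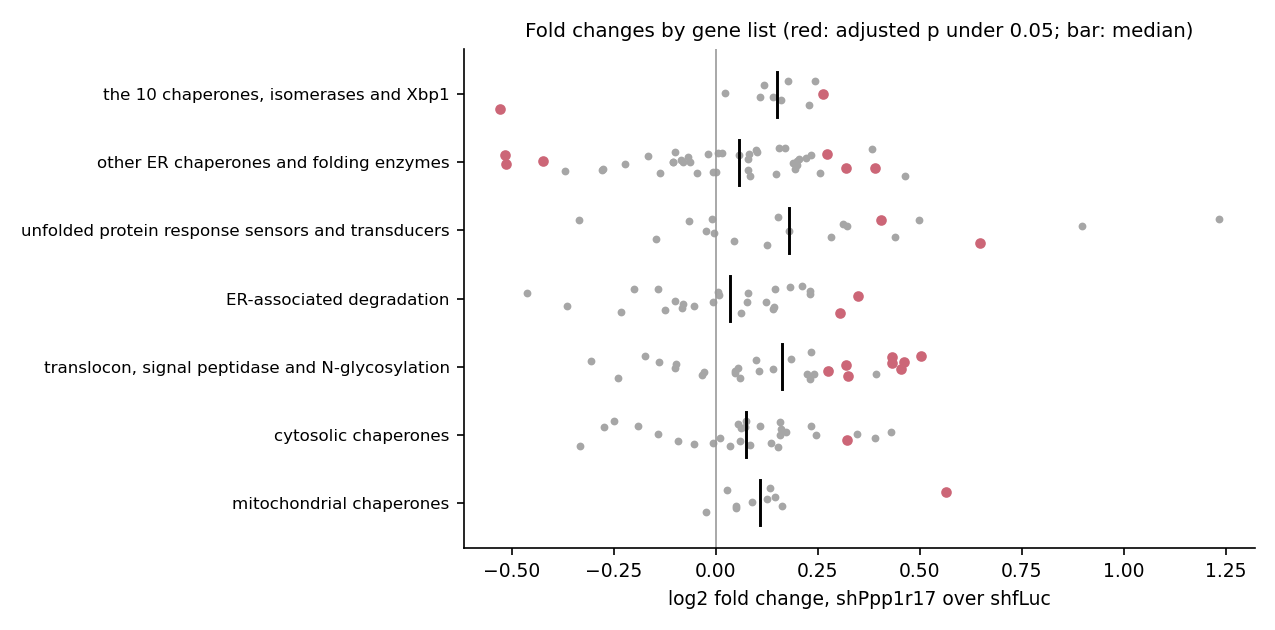
Fitted log2 fold change (shPpp1r17 over shfLuc) of each tested gene by list, with red points for an adjusted p under 0.05 in edgeR and black bars at list medians. The translocon list holds 8 red points, all above 0, and the 10 chaperone genes hold 1 on each side.

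Genes that hold the promoter element were looked up across the whole set. Of 37 genes whose window held an ER stress element 21 were tested, and 1 of these, the RNA-binding protein gene Hnrnpa3 (0.28, SE 0.08), rose and none fell in edgeR (5 and 0 at an unadjusted p under 0.05; 2 and 0 in DESeq2), with a median log2 fold change of 0.08. The 5 members among them ran from 0.11 (Hspa5) to 0.24 (Calr). The other 16 had a median of -0.08 and 6 above 0, with Dnajc3, an inhibitor of PERK, at 0.20 (SE 0.10), Creld2 at -0.08 (SE 0.14) and the ubiquitin ligase gene Syvn1 at -0.23 (SE 0.13). These genes are named after their values were seen. Of all genes tested 3.39% were called higher in edgeR.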

How the data were processed

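RNA was isolated and made into libraries with kits for small inputs (PicoPure, SMARTer), per the labels' protocols. The deposited expected counts per gene were fractional for up to 10.1% of genes and were rounded. The deposited TPM are scaled by the authors to length and library. Tools listed, per the submitters' processing notes, are DRAGEN, bcl2fastq, limma and edgeR; no role, version or genome build is stated there. Deposited gene length and effective length are in bases, per the file headers, and equalled the GENCODE M21 length for 99.5% of genes with 1 transcript. Symbols matched 55141 of 55487 identifiers.

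Groups and replicate numbers came from the titles. The members and lists were chosen with earlier results of these data known. The main test was edgeR 4.0.16 (R 4.3.3), quasi-likelihood with TMM factors, minimum count 10, minimum total count 15, group as the single term and Benjamini-Hochberg adjustment over 17339 genes at 0.05. On simulated data it recovered 43.8% of 1.5-fold, 83.7% of 2-fold and 96% of 4-fold changes. Of its calls there 5.76% were false. Changes of 1.5-fold were thus often missed there. The changed genes were drawn over all levels, so these shares may differ for the members, most of which are at high levels. CPM used TMM-scaled totals. Standard errors came from the fold change and F. The chi-square per degree of freedom between libraries of 1 hairpin was 7.46 to 40.2, so none was a repeat deposit. Reads carry no molecular identifiers, so reads of 1 molecule may be counted more than once. Named were all members, Ppp1r17, up to 4 genes per list with the smallest p, and 3 genes most like Hspa5, Pdia3 or Xbp1 (average log2 CPM of at least 5). Alternatives were DESeq2 1.42.0, limma 3.58.1 with voom or log2(TPM + 1) and log2(TPM + 0.1), RLE factors, library totals, other filters, length offsets, robust dispersion, the replicate block, libraries left out, and removal of each library's trend with length and GC content (99.9% of genes had a GC value). Motifs were searched on both strands of RefSeq promoters with Python 3.11.15 and in the longest 3′ UTR of at least 50 bases per gene.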

Additional observations from a re-analysis of the deposited data

Results flagged for a closer look

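Pdia4 in shfLuc 1, at 104 CPM, lay far from the other 3 shfLuc libraries (75.3 to 79.3 CPM), with a gap to the nearest of 0.861 of the group's whole range, above Dixon's critical value for 4 samples. It was 1 of 20 groups of 4 looked at, and chance marks about 1 in 20. Without that library Pdia4 passed the threshold as higher in shPpp1r17, as given above.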

How the results depend on the processing

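The sign of 9 members held in all 22 alternatives. Dnajb9 turned to -0.0625 on log2(TPM + 1) and to -0.0642 on log2(TPM + 0.1), and ran from -0.0387 (without shfLuc 3) to 0.0752 (without shfLuc 4) with 1 library left out. The cause was not tested for any change named here. The counts of 588 genes higher and 462 lower became 996 and 931 with DESeq2 and 898 and 869 with quality weights per sample in limma voom. They were 309 higher on log2(TPM + 1), 306 higher on log2(TPM + 0.1), and 26 higher and 11 lower without the shPpp1r17 libraries 2 and 3. With 1 library left out they ran from 0 to 843 higher and from 0 to 706 lower. EdgeR called 0 without shfLuc 2 (1762 higher and 1547 lower at an unadjusted p under 0.05) and without shfLuc 3 (1627 and 1518), where limma voom called 0 and DESeq2 685 higher and 518 lower, and 657 and 500 (alternatives added after seeing the data). The members called higher (1) were 2 with DESeq2 (Calr with Xbp1), 2 with quality weights and 2 with at least 1 CPM in all libraries. They were 0 with no filter on low counts, the effective length offset, log2(TPM + 1), log2(TPM + 0.1), the trend with length and GC content removed, the replicate block and without the shPpp1r17 libraries 2 and 3, and 0 to 1 with 1 library left out. The 1 member called lower was 0 with the block, without those 2 libraries, and 0 to 1 with 1 library left out. With the replicate block 302 genes were lower. The labels do not say whether same-numbered libraries belong together. Their deviations from the group means correlated at -0.0115, 0.0354, 0.00579 and 0.116, and 2 of 4 correlated best with their own number. With so few libraries these values cannot tell whether same-numbered libraries were handled together.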
